A study of Homo sapiens with 8 samples.

Results

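PNRC1 and PNRC2 are a pair of paralogous genes for small proline-rich nuclear receptor coactivators, and the RFX7 binding intervals at both genes were examined here. Every interval was taken whose midpoint lay inside either gene or within 50 kb of either gene end. This gave 5 of the 517 intervals in both peak lists, 2 of 213 in the DMSO list and 3 of 304 in the Nutlin-3a list. The 2 genes were chosen by their −log10 q ranks and their intervals in these same lists, so the values below describe them and were not tested. The intervals come from chromatin immunoprecipitation and sequencing (ChIP-seq) with an antibody to RFX7 in U2OS, an osteosarcoma cell line. Cells had been exposed for 24 h to 10 µM Nutlin-3a, which blocks the binding of MDM2 to p53 and so stabilises p53, or to its solvent DMSO. Each treatment had 2 RFX7 samples and 2 input samples per the labels, but 1 merged list of intervals per treatment, so no value has a replicate error and the treatments were not compared by a test. Sequencing depth is unknown for both lists, and interval number, width and scores can follow depth.

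RFX7 belongs to the regulatory factor X family, whose members bind the X-box, a DNA element built from a pair of inverted half-sites. It is known as a factor that acts downstream of p53 and activates genes that restrain growth. PNRC1 and PNRC2 bind nuclear receptors, among them the estrogen receptor and SF-1, and raise their transcriptional activity. Both proteins also touch RNA metabolism: PNRC2 bridges the decapping factor DCP1A and the nonsense-mediated decay factor UPF1, and PNRC1 is known to bring decapping proteins into the nucleolus and to hold back ribosomal RNA processing. PNRC1 is described as a tumour suppressor.

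On GRCh38, PNRC1 (gene ID 10957) spans chr6:89080751-89085160 and PNRC2 (gene ID 55629) chr1:23959164-23963462, 4410 and 4299 bp. Both lie on the plus strand. The RefSeq promoter table gives each gene a window of 250 bases before and 50 bases from its start site on. The start site of PNRC1 is the left boundary of the gene. That of PNRC2 is 664 bp inside the left boundary, at 23959828. Which start of PNRC2 is used in U2OS is not known from the data used here, and positions at PNRC2 are therefore given from both. Exons, introns and UTRs were not assigned.

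The 250 bases ahead of each start site are shown because the RFX7 intervals cover this stretch at PNRC2 and miss it at PNRC1. They are from RefSeq GRCh38.p14, plus strand, at chr6:89080501-89080750 for PNRC1 and at chr1:23959578-23959827 for PNRC2. Capitals mark the letters CCAAT, or ATTGG where they stand on the other strand, and the letters GTTGCTG, here as CAGCAAC on the other strand.
PNRC1: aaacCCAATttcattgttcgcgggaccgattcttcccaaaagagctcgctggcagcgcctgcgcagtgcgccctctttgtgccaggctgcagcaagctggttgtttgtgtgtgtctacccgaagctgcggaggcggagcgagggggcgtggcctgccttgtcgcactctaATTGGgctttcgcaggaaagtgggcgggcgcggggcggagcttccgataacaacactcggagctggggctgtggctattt
PNRC2: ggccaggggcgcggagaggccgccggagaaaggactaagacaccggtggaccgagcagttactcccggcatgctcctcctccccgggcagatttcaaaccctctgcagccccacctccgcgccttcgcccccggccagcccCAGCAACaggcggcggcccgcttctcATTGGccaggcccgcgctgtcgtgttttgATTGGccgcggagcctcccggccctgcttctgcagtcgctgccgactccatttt
CCAAT is the core of the element bound by NF-Y, a factor known to bind beside RFX proteins at some promoters.

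All 250 of the printed PNRC2 bases lay in the Nutlin-3a interval and 243 of them in the DMSO interval. Of the printed PNRC1 bases, 0 lay in an interval of either list. The X-box and its half-sites were searched on both strands of the windows of 300 bases. The palindromic X-box, a looser form of it with free central letters, the half-sites GTTGCCA as well as GTTGCTA, and the shorter GTTGCC, which GTTGCCA contains, had no match in either window. Of 34943 promoter windows, 0.492% held the looser X-box, 4.07% GTTGCCA, 2.85% the half-site GTTGCTA and 12.2% the shorter GTTGCC. The absence says only that these letters are not in these 300 bases, and at PNRC1 the intervals lie outside the window. GTTGCTG, which differs from GTTGCTA in its last letter, was added after the sequences had been read and is held by 4.92% of windows. PNRC2 has it from base -109 to base -103, counted from the start site as 0, inside both the DMSO and the Nutlin-3a interval and 75 and 125 bp from their midpoints. PNRC1 has it too, from base 0 to base 6, just after the printed stretch and outside its intervals. CCAAT, also added afterwards, stands 2 times in each window. Of all windows, 34.6% hold it in any number of copies, and the share with 2 copies was not counted. In PNRC2 both copies are inside both intervals, 19 and 48 bases downstream of the CAGCAAC. The PNRC1 window is 61.7% and the PNRC2 window 67.3% G or C, against a median of 58.7%. Each holds 26 CpG, against a median of 14.

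**Figure D1:**
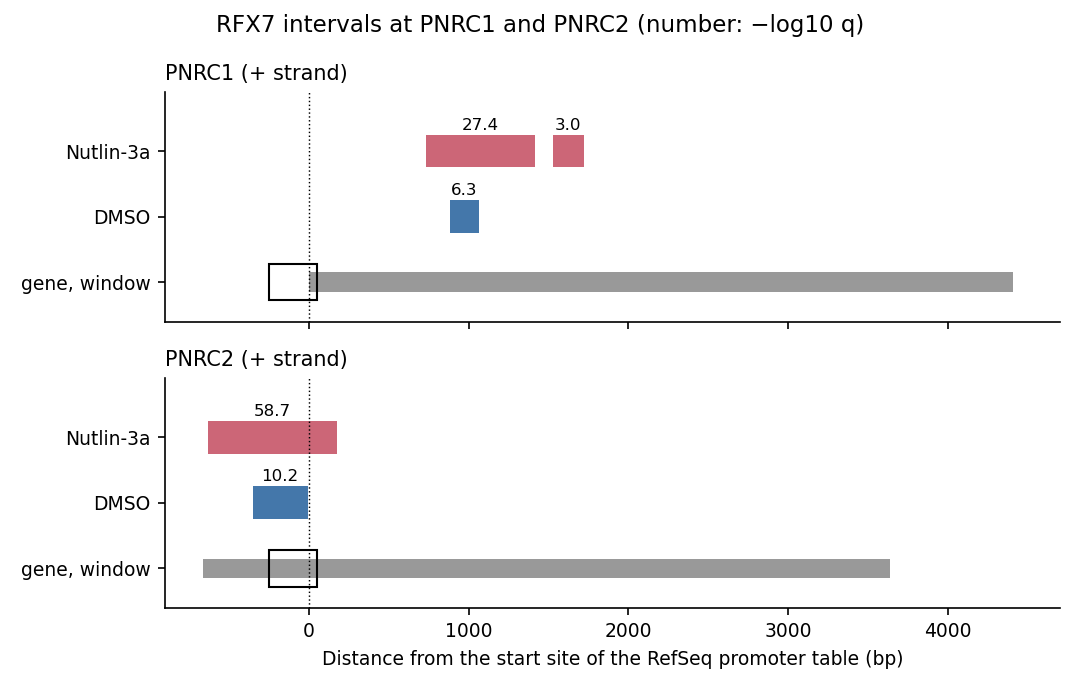
RFX7 intervals at PNRC1 (upper panel) and PNRC2 (lower panel), plotted as distance in bp from the start site in the RefSeq promoter table (dotted line). Grey bars are the genes, black boxes the promoter windows, blue bars DMSO intervals and red bars Nutlin-3a intervals, each with its −log10 q. The PNRC2 intervals lie over the window, and the PNRC1 intervals lie downstream of it inside the gene.

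PNRC2 held one of the highest-ranked RFX7 intervals of both lists. After Nutlin-3a the interval at chr1:23959194-23960001 was 808 bp wide. Its fold enrichment was 11.3 and its −log10 q 58.7, both the authors' values. It ranked 4 of 304 by −log10 q and 2 by fold enrichment. After DMSO the interval at chr1:23959475-23959820 was 346 bp wide, had a −log10 q of 10.2 and was enriched 4.93-fold. This one ranked 3 of 213 by −log10 q and 2 by fold enrichment. Ranks from lists of different length show no change between treatments, and both placed PNRC2 near the top. Its neighbours in rank were close in the DMSO list, at −log10 q values of 10.3 and 9.57. In the Nutlin-3a list the interval at rank 3 had 64.9 and a tied pair at rank 5 had 57.6.

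PNRC1 also had an interval in both lists, with lower scores. The Nutlin-3a interval at chr6:89081481-89082163 was 683 bp wide, had a −log10 q of 27.4 and was enriched 7.32-fold. It ranked 48 of 304 by −log10 q, one of 3 intervals tied there, and 54 by fold enrichment. The DMSO interval at chr6:89081636-89081814 was 179 bp wide, had a −log10 q of 6.25 and was enriched 4.21-fold. Here PNRC1 ranked 11 of 213 by −log10 q and 7 by fold enrichment. The next ranks in the DMSO list, 10 and 12, had −log10 q values of 6.48 and 5.65.

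A second, weak interval at PNRC1 was listed only after Nutlin-3a. It lay at chr6:89082281-89082469, 117 bp beyond the first, and was 189 bp wide. Its −log10 q of 2.99 ranked 288 of 304, and it was enriched 3.23-fold. Such close pairs were common in that list, which held 46 pairs of neighbouring intervals within 1 kb. Of these pairs, 17 had a smaller gap than the PNRC1 pair and 6 had a weaker partner of lower −log10 q. Of the intervals ranked 1 to 50 after Nutlin-3a, 16 had such a neighbour. PNRC2 had none in either list, and neither did PNRC1 in the DMSO list. Close pairs were rare in the DMSO list, which held 2 of them among 213 intervals.

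**Figure D2:**
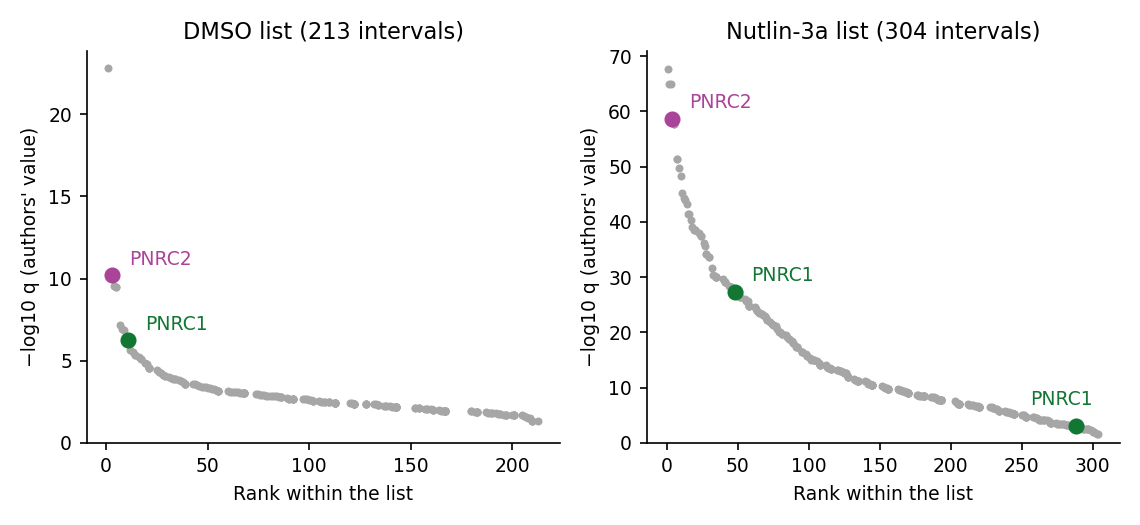
The −log10 q of every interval against its rank in the DMSO list (left) and the Nutlin-3a list (right), with grey points for single intervals and coloured points for PNRC1 and PNRC2. PNRC2 sits at rank 3 and rank 4, and PNRC1 at rank 11 on the left and at ranks 48 and 288 on the right.

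Within each list PNRC2 stood above PNRC1 by both scores. The ratio of the fold enrichments of PNRC2 to PNRC1 was 1.54 after Nutlin-3a and 1.17 after DMSO. Between the paralogues lay 43 other intervals by −log10 q after Nutlin-3a and 7 after DMSO. The PNRC2 interval was 1.18 times as wide as the main PNRC1 interval after Nutlin-3a and 1.93 times as wide after DMSO. By width, PNRC2 ranked 33 and PNRC1 51 after Nutlin-3a, and 10 and 136 after DMSO. With the intervals as listed, the order of the paralogues was thus the same by each of these 3 measures in both lists. No error is known for any of them. The order by width after Nutlin-3a depends on counting the main and the weak PNRC1 interval apart. Joined, they span chr6:89081481-89082469, which is wider than the PNRC2 interval of 808 bp.

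Positions relative to the start differed between the paralogues. By the promoter table, the Nutlin-3a midpoint lay 231 bp upstream of the PNRC2 start site and the DMSO midpoint 181 bp upstream. Counted from the left boundary of PNRC2, the same midpoints lay 433 and 483 bp downstream, so the direction depends on the start chosen. At PNRC1, where both references coincide, the main Nutlin-3a midpoint lay 1071 bp downstream of the start site, the DMSO midpoint 974 bp and the weak second interval 1624 bp downstream. All 5 midpoints were inside the gene boundaries, since the left boundary of PNRC2 lies ahead of its start site in the promoter table. The main Nutlin-3a interval of PNRC1 began 680 bases after the promoter window ended, whereas that of PNRC2 held all 300 bases of the window. The PNRC2 DMSO interval covered 243 bases of the window and ended 8 bp ahead of the start site.

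Both kinds of position occurred elsewhere in the Nutlin-3a list. Of the 294 intervals on chromosomes with windows in the promoter table, 109 overlapped a promoter window (37.1%), and 33 held a whole one (11.2%). The midpoint was upstream of the nearest start site by up to 1 kb for 77 intervals (26.2%), which include PNRC2 by its start in the promoter table. It was downstream by up to 1 kb for 57 (19.4%), where PNRC2 would fall if counted from its left boundary. For 22 intervals (7.48%) it was 1 to 2 kb downstream, the group of both PNRC1 intervals, and for 5 (1.70%) it was 1 to 2 kb upstream. Among the 161 intervals within 2 kb of a start site, the median distance was 201 bp, and 23 lay farther away than the main PNRC1 interval. In the DMSO list 8 of 189 intervals (4.23%) overlapped a promoter window, PNRC2 among them.

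**Figure D3:**
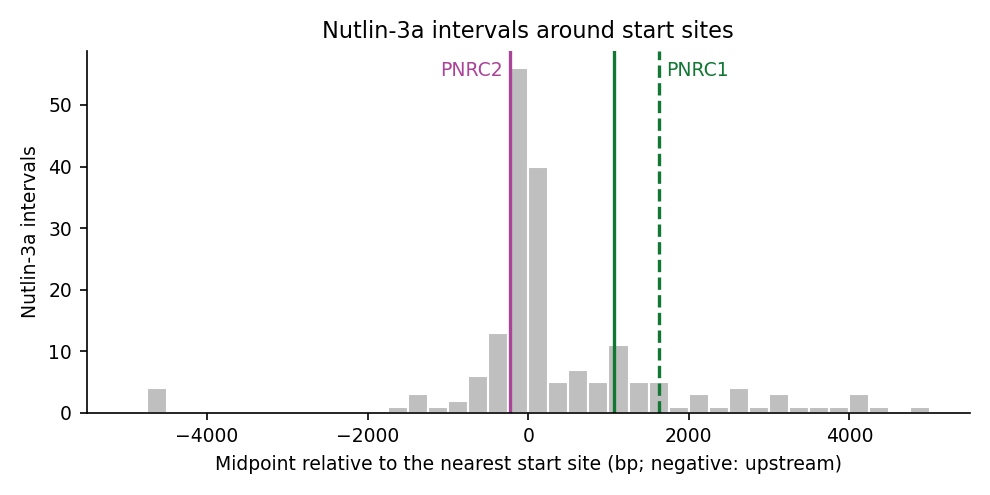
Number of Nutlin-3a intervals by the distance of their midpoint from the nearest start site, in bins of 250 bp within 5 kb, with negative values upstream. Vertical lines mark PNRC2 at -231 bp by its start in the promoter table, the main PNRC1 interval at 1071 bp (solid) and its weak second interval at 1624 bp (dashed). PNRC2 falls beside the central peak of the distribution and PNRC1 in its downstream shoulder.

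Both paralogues belonged to the 22 sites at which an interval of one list overlapped one of the other by at least 1 bp, 10.3% of DMSO intervals and 7.24% of Nutlin-3a intervals. At both genes the wider Nutlin-3a interval enclosed the DMSO interval. At PNRC2 it filled 42.8% of the wider interval, which reached 281 bp farther left and 181 bp farther right. At PNRC1 it filled 26.2%, with 155 bp more on the left and 349 bp more on the right. The median over the 22 sites was 23.5%. The midpoints were 50 bp apart at PNRC2 and 97 bp apart at PNRC1, against a median of 153 bp. The Nutlin-3a intervals of both genes were narrower than the median of 1120.5 bp at these sites, 17th and 19th in order of width. In the DMSO list PNRC2 was 6th and PNRC1 17th of 22 by width.

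**Figure D4:**
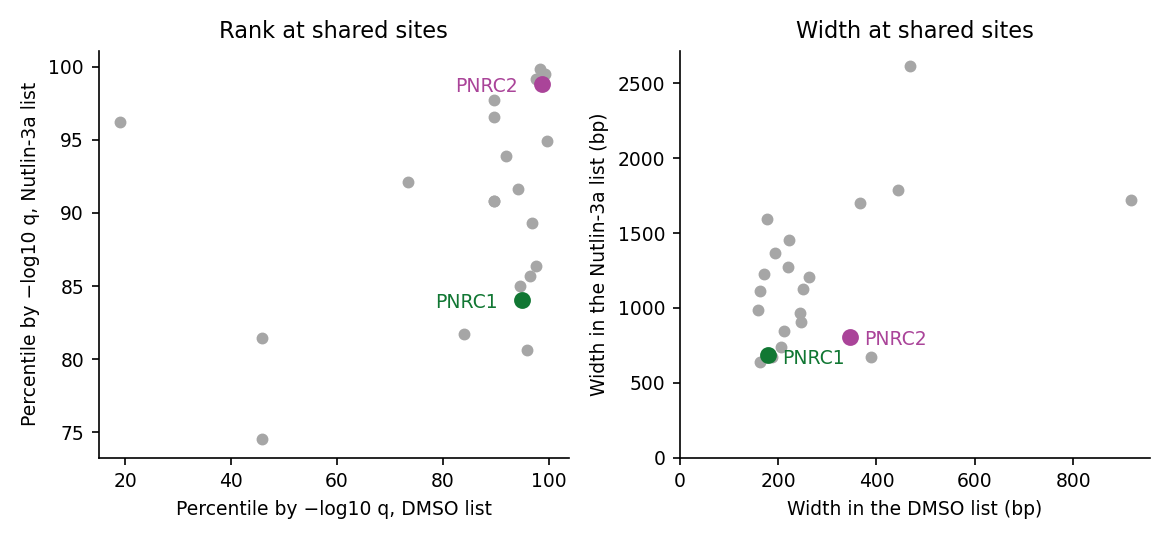
The 22 sites found in both lists, by percentile of −log10 q within each list (left, in percent of the list) and by width in bp (right), with the DMSO list on the horizontal and the Nutlin-3a list on the vertical axis. PNRC2 lies at the upper right of the left panel, at the 98.8 percentile in both lists, and PNRC1 at the 95.1 and 84.05 percentiles.

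The sites most like each member were sought by the distance between pairs of percentile ranks, over the 2 lists. The closest to PNRC1 was the site nearest to PIK3R2, a regulatory subunit gene of PI3-kinase, at ranks 12 and 45 in the DMSO and Nutlin-3a lists and a distance of 1.09 percentile points. It was followed by the sites nearest to AZIN1, an antizyme inhibitor gene, at 2.17 and to TOB2, an antiproliferative gene of the BTG/TOB family, at 3.46. The midpoints of these sites after Nutlin-3a lay 4141 bp from the nearest end of PIK3R2, 15203 bp from that of AZIN1 and 1777 bp from that of TOB2. For PNRC2 the closest were the site whose nearest protein-coding gene is PARP11, although 157786 bp away, at a distance of 0.808, and the VCP site at 1.09. VCP codes for an ATPase that extracts ubiquitinated proteins from complexes. The paralogues were 15.3 percentile points apart, with 13 of the other sites closer to PNRC1 and 14 closer to PNRC2.

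An interval within 50 kb was uncommon among genes. Of 20037 protein-coding genes, 2.94% had a Nutlin-3a midpoint inside or within 50 kb, 0.559% a DMSO midpoint and 0.294% both. PNRC1 and PNRC2 were chosen for having both, so nothing is read from this share. Neither gene had a further interval nearby. The next midpoint outside the limit was 781537 bp from PNRC2 after Nutlin-3a and 4284041 bp after DMSO, and 22397984 and 15044507 bp from PNRC1.

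The limit of 50 kb also takes in other genes. PNRC1 had 7 annotated neighbours within 50 kb and PNRC2 had 8, of which 2 each code for proteins. Downstream of PNRC2, SRSF10 lies 884 bp beyond its end, and SRSF12 lies 10798 bp beyond the end of PNRC1. These neighbours are themselves paralogues that code for SR-family splicing regulators. Both are read toward the PNRC gene, with start sites 20730 and 36249 bp from the Nutlin-3a midpoints. The other coding neighbours were CNR2, a cannabinoid receptor gene whose start site was 46235 bp from the PNRC2 midpoint, and PM20D2. The left boundary of PM20D2 lies 8779 bp beyond the end of PNRC1 and 12118 bp from its Nutlin-3a midpoint, nearer than SRSF12, and its start site in the promoter table is 64233 bp from that midpoint. The non-coding gene PNRC1-DT starts on the opposite strand 1242 bp from the PNRC1 midpoint, and its promoter window shares 270 bases with that of PNRC1. LOC124903877, a long non-coding gene, has a boundary 1483 bp from the PNRC2 midpoint. The remaining non-coding neighbours were LOC101929004, RN7SL336P, RNU2-61P and LOC100131124 at PNRC1, and MIR378F, H3P1, LOC105378615, RPL36P5 and LOC105376863 at PNRC2. A PNRC end or start site was nearer to each of the 5 midpoints than that of any neighbour, but the lists do not assign intervals to genes.

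Partners of the PNRC proteins were counted in the same way. In mRNA decapping and nonsense-mediated decay, 1 of 27 genes had a Nutlin-3a interval within 50 kb, 3.70% (95% Wilson interval 0.657 to 18.3%), beside 2.94% of all protein-coding genes. This was DCP2, the catalytic subunit of the decapping enzyme, with an interval at chr5:112976573-112976788, 118 bp from a gene end, at rank 144, with a −log10 q of 10.5 and 4.36-fold enrichment. None of the 27, including DCP1A and UPF1, had a DMSO interval, which by the limit of 3 counts allows a share of up to 11.1% (the Wilson upper bound is 12.5%), beside 0.559% of all protein-coding genes.

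Among 35 nuclear receptors and coactivators, 1 had a Nutlin-3a interval within 50 kb, 2.86% (95% Wilson interval 0.506 to 14.5%). This was PPRC1, a coactivator gene of the PGC-1 family, whose interval at chr10:102119575-102119744 lay 230 bp from a gene end and ranked 206, with 4.09-fold enrichment. In the DMSO list the only gene of the 35 with an interval was PGR, the progesterone receptor, at chr11:101067034-101067215. That interval was inside the gene, 37500 bp from the nearest end, and ranked 128 of 213 with a −log10 q of 2.38. The estrogen receptor genes ESR1 and ESR2 and NR5A1, the gene of SF-1, had none in either list. For both lists of partners the Nutlin-3a share lay near the 2.94% of all protein-coding genes. The 1 DMSO gene of 35 stands beside a background of 0.559%, and the Wilson interval covers that background at its lower end. These intervals cover the number of genes only.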

How the data were processed

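RFX7 ChIP-seq and input DNA of U2OS cells were labelled as 8 samples in 4 groups of 2, and 1 merged list of intervals per treatment was used. Input data and single replicates were not analysed here. The submitters' processing notes name hg38, MACS2 2.2.7.1, bedtools 2.29.2, SAMtools 1.10, Picard, Trimmomatic 0.39 and cutadapt 2.10, without their roles. The aligner, the settings and the way replicates were merged are not given in the sources used here. The fold enrichment (a ratio) and the −log10 q of each interval are the authors' deposited values. They depend on depth and were used only within a list. All intervals had q under 0.05.

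Starts were made 1-based, and midpoints stood in for summits, for which no position is listed. Genes and promoter windows came from RefSeq GRCh38.p14, with both member symbols matched. Intervals on a chromosome with no window, 10 after Nutlin-3a and 24 after DMSO, were left out of counts by start site. Tied intervals share the best rank. Python 3.11.15, pandas 2.3.3 and statsmodels 0.14.6 were used, and the counting was tested on simulated intervals. The members and gene lists were chosen with earlier results of these data known. Named genes were the members, neighbours within 50 kb, listed partners with an interval within 50 kb, and the 3 sites closest in percentile rank. One site that this rule covers is not reported here. Alternatives changed the window, the −log10 q minimum, the ranking, the overlap rule and the joining of neighbours. A planned comparison of the proteins and the sequence under the PNRC1 intervals were not analysed here.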

Additional observations from a re-analysis of the deposited data

How the results depend on the processing

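Of 54 values recomputed for 13 results, 37 kept to the reported value and 17 moved further. Ranks and numbers of intervals or listed genes were held to within 1.5 times the reported number, overlaps to the same call, and shares of all protein-coding genes to the reported share's 95% Wilson interval. The intervals counted at PNRC1 and PNRC2 were the same with windows of 1, 5 and 100 kb. With a −log10 q of at least 10, PNRC1 kept 0 DMSO intervals and 1 Nutlin-3a interval, and PNRC2 kept 1 in each list. Joining neighbours within 1 kb left 1 Nutlin-3a interval at PNRC1, which is then wider than that of PNRC2. Ranked by fold enrichment, PNRC1 moved to 7 in the DMSO list and PNRC2 to 2 in the Nutlin-3a list. Ranked by width, PNRC1 moved to 136 in the DMSO list, and PNRC2 to 10 in the DMSO list and 33 in the Nutlin-3a list. The overlap of the lists' intervals held at both genes with midpoints within 100 bp, and was 0 at PNRC1 and 0 at PNRC2 when 50% of both intervals had to overlap, as the DMSO interval fills less than that of the wider one. The share of protein-coding genes with an interval followed the window by construction, at 0.294%, 0.27% and 0.948% for 5, 1 and 100 kb in the DMSO list and 1.11%, 0.938% and 4.77% in the Nutlin-3a list. Nuclear receptor and coactivator genes with a Nutlin-3a interval numbered 2 within 100 kb, the second being RARB, at 66970 bp from an interval nearest to TOP2B. No paired analysis was possible because the intervals carry no replicate number, and leaving out single replicates was not run for the same reason. The unknown depth limits any statement between treatments.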

Other observations

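The letters found at PNRC2 were also counted in the 146 promoter windows that a Nutlin-3a interval touched, and in the 34797 other windows. This count was made after the PNRC sequences had been read, the windows of divergent genes overlap each other, and no test was run. The PNRC2 window, in which these letters were read, is itself among the 146, and the PNRC1 window is not. The 146 windows were touched by 109 intervals, so some lie under the same interval. The Wilson intervals below treat them as independent. CCAAT stood in 107 of the 146 windows, 73.3% (95% Wilson interval 65.6 to 79.8%), and in 34.5% of the others. GTTGCTG, the form in both PNRC windows, stood in 22 of 146, 15.1% (10.2 to 21.8%), and in 4.88% of the others. GTTGCTA stood in 29 of 146, 19.9% (14.2 to 27.1%), and in 2.78% of the others, although it was in neither PNRC window. GTTGCCA stood in 10 of 146, 6.85% (3.76 to 12.1%), and in 4.06% of the others, which is inside that Wilson interval. The shorter GTTGCC stood in 41 of 146, 28.1% (21.4 to 35.9%), and in 12.1% of the others. The looser X-box with free central letters stood in 1 of 146, 0.685% (0.121 to 3.78%), and in 0.491% of the others, a share inside that interval. The palindromic X-box was in 0 of the 146, which by the limit of 3 counts allows a share of up to 2.05% (the Wilson upper bound is 2.56%), and in 0.0287% of the others. Touched windows also had a higher median content of G and C, 65.5% against 58.7%, and a median of 25.5 CpG against 14. The part of base composition in these shares was not tested.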
